A study of Mus musculus with 5 samples.

Results

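Macrophages of the fresh mouse submandibular salivary gland were examined in 1 single-cell RNA-seq library. A cell barcode was taken as a member where it had at least 200 detected genes, a mitochondrial share of at most 10% of its unique molecular identifiers (UMIs, each standing for 1 captured RNA molecule) and a UMI of at least 3 of 8 macrophage genes: C1qa, C1qb, C1qc, Csf1r, Adgre1, Cd68, Lyz2 and Fcer1g. Of the 1552 fresh gland barcodes that passed both limits, 264 were members, a share of 17.0% (95% Clopper-Pearson interval 15.2 to 19.0, counting error only), and 1288 were not. The gland barcodes were part of 58674 barcodes that passed the same limits in 5 libraries. Because the 8 genes chose the members, their values below are a description, and no p-value is given for any gene.

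The fresh gland library came from untreated female C57BL/6 mice of 8 to 12 weeks, and no transgene or deletion was named for any group. The other libraries were organoids grown in Matrigel from dissociated gland cells of 4 mice (mSGOs): untreated at day 7, irradiated on day 5 with 7 Gy of photons and collected at day 7, irradiated likewise with 7 Gy of protons, and untreated at day 11. There was 1 library per group, so no difference between groups could be tested, and the number of mice pooled for the gland library was not given in the sources used here. In every library, cells that excluded propidium iodide were sorted for droplet capture, and no other gate was named.

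Macrophages are phagocytic cells that live in every tissue, where they take up dying cells and debris, degrade them in lysosomes, and present peptides to helper T cells on MHC class II molecules. C1q, the recognition molecule of the classical complement pathway, is made mainly by macrophages, and its chains A, B and C are encoded by neighbouring genes. Csf1r is the receptor for the growth factor on which most macrophages depend, Adgre1 encodes the F4/80 antigen, Cd68 a lysosomal membrane protein, Lyz2 lysozyme and Fcer1g a signalling subunit shared by Fc receptors. In salivary glands, macrophages lie between acini and ducts, the secretory and conducting parts of the epithelium.

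The promoters of genes that carry most of the description are shown, to let the shared letters be seen. Each is the 250 bases before a RefSeq transcript start in GRCm38.p6, read on the gene's strand. For H2-Aa (chr17:34287824-34288073, minus strand) and H2-Eb1 (chr17:34305617-34305866, plus strand), which encode an alpha and a beta chain of MHC class II, capitals mark CTGATTGG, the form of the Y box known from class II promoters.
H2-Aa: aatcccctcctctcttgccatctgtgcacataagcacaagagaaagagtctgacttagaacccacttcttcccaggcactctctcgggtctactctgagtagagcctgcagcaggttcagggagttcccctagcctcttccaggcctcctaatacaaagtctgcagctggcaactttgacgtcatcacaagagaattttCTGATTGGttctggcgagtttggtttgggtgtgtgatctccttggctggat
H2-Eb1: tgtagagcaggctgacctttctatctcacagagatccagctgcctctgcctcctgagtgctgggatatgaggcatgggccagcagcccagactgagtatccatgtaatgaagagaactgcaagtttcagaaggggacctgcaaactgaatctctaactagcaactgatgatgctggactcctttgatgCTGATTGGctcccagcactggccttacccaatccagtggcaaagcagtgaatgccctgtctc

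For C1qb (chr4:136886201-136886450, minus strand) and C1qc (chr4:136892915-136893164, minus strand), capitals mark GAGGAA or its reverse complement TTCCTC, the core letters bound by PU.1, the factor encoded by Spi1.
C1qb: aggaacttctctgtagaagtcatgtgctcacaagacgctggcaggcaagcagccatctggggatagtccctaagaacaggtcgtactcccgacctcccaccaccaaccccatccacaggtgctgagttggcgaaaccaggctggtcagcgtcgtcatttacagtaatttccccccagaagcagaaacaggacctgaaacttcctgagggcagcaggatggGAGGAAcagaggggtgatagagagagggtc
C1qc: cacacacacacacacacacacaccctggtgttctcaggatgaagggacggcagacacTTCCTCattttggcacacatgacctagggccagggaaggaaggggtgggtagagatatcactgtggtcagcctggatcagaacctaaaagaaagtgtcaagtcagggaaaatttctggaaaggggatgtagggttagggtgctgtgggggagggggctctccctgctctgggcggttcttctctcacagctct
On both strands, CTGATTGG was found in 3.83% and GAGGAA in 23.3% of the 32851 promoters of the same length. The matches lay 43 bases before the start in H2-Aa, 54 in H2-Eb1, 24 in C1qb and 187 in C1qc. Promoters were on hand for 6 of the 10 genes of the MHC class II list, of which 3 held CTGATTGG, and for 5 of the 8 rule genes, of which 3 held GAGGAA. The letters are a description of the window and not of a bound factor.

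The number of macrophage genes in a barcode moved with its depth and with its share of acinar transcripts. Of the 264 members, 173 had a UMI of 3 or 4 of the 8 genes, 50 of 5 or 6 and 41 of 7 or 8. The 41 barcodes with 7 or 8 genes had a median of 1923 detected genes and 7121 UMIs, and acinar secretory transcripts such as Mucl2, Prol1 and Smr3a took a median of 14.0% of their UMIs. The 173 barcodes with 3 or 4 genes had a median of 338 detected genes and 2432 UMIs, of which 76.0% were acinar secretory. In the 1288 other barcodes the medians were 271 genes, 2390.5 UMIs and 79.3%. Most of the 41 barcodes thus carried few acinar transcripts, although the share reached 68.5%, whereas most members of 3 or 4 genes were shallow and dominated by them. Whether these were macrophages or barcodes with free macrophage RNA was not tested. Around the threshold, the 106 barcodes with exactly 3 of the genes had a median of 311 genes and 76.4% acinar transcripts, and the 154 with exactly 2 had 277 genes and 79.5%. For this reason values are also given for the 41 barcodes alone, called deep members below.

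**Figure D1:**
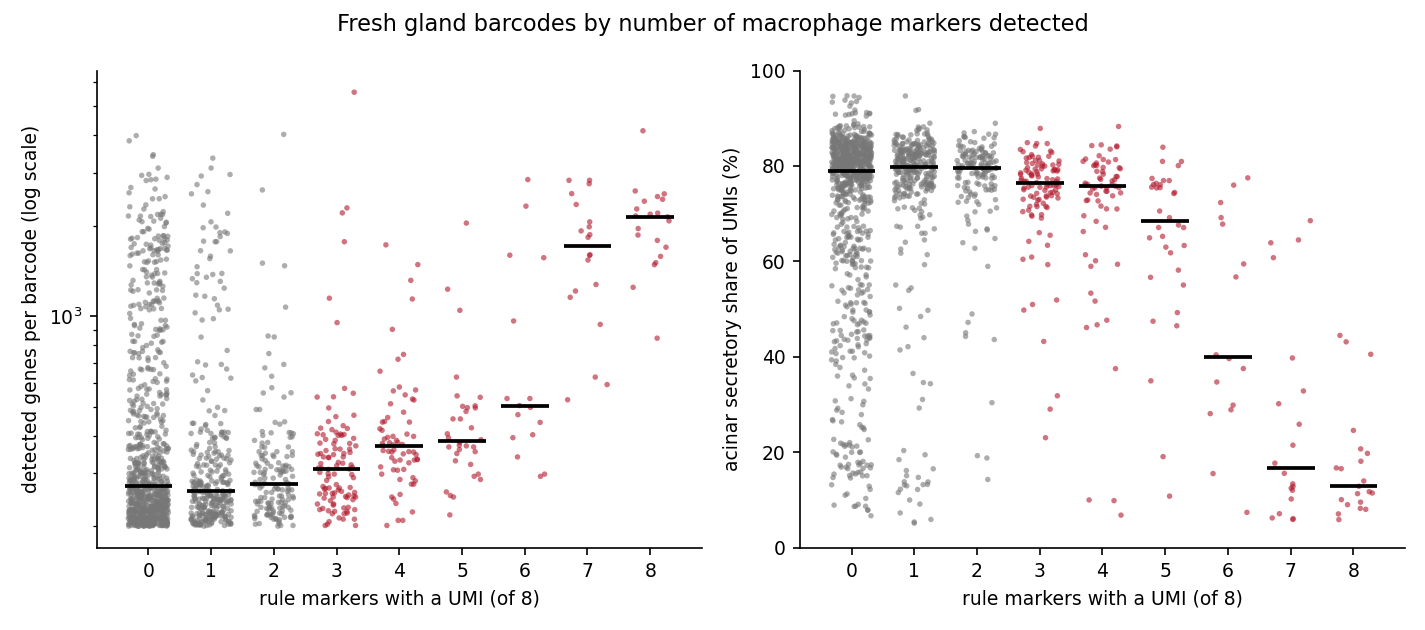
Each point is 1 of 1552 fresh gland barcodes, placed by the number of the 8 macrophage genes with a UMI; the left axis gives detected genes on a log scale, the right axis the acinar secretory share of UMIs in percent, members are red, other barcodes grey and black bars are medians. Barcodes with 7 or 8 genes had medians of 1923 genes and 14.0% acinar transcripts, with shares up to 68.5%, whereas those with 3 or 4 overlapped the non-members on both axes.

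C1q carried most of the membership. At least 2 of the 3 C1q genes had a UMI in 250 of the 264 members (94.7%), all 3 in 161, and none in 4. Of the 106 barcodes with exactly 3 markers, 30 had the C1q genes alone. Summed over members, C1qb reached 5175 CPM (UMIs scaled to a total of 1000000, over all UMIs but those of acinar secretory and mitochondrial genes) and was found in 241 members, C1qa 4613 CPM in 231 and C1qc 2954 CPM in 199. In the other barcodes the levels were 225, 156 and 82.1 CPM, and in the 11597 barcodes with fewer than 200 genes 146, 124 and 68.6 CPM. Fcer1g reached 2678 CPM in 191 members, Lyz2 1591 in 115, Csf1r 535 in 73, Cd68 439.7 in 78 and Adgre1 102 in 32. All 41 barcodes with 7 or 8 genes had the 3 C1q genes, with a median of 41 C1qb UMIs (range 9 to 126), 31 C1qa UMIs (3 to 107) and 21 C1qc UMIs (2 to 64). C1qa, C1qb and C1qc lie side by side on chromosome 4 of GRCm38.p6, at 136895916 to 136898844, 136880126 to 136886200 and 136889801 to 136892936.

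The groups below were set by how many rule genes, C1q included, had a UMI, so the proportions within C1q and the ratios to it depend on that choice and are a description. C1qa gave 36.3% of the C1q UMIs in barcodes with 7 or 8 markers (Clopper-Pearson 34.8 to 37.8), 35.8% with 3 or 4 (32.7 to 39.0), 33.7% in the other barcodes (29.9 to 37.7) and 36.7% in barcodes with fewer than 200 genes (33.3 to 40.2). C1qb gave 39.6% (38.0 to 41.1) at 7 or 8 markers and 48.5% (44.4 to 52.7) in the other barcodes, and C1qc gave 24.2% (22.8 to 25.6) and 17.7% (14.7 to 21.1). For every 100 C1q UMIs there were 274 Cd74 UMIs at 7 or 8 markers, 284 at 5 or 6, 265 at 3 or 4 and 256 in the barcodes with exactly 2, but 955 in those with 0 or 1 marker and 373 in those with fewer than 200 genes. Apoe had 119 UMIs per 100 C1q UMIs at 7 or 8 markers and 74.9 at 3 or 4.

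**Figure D2:**
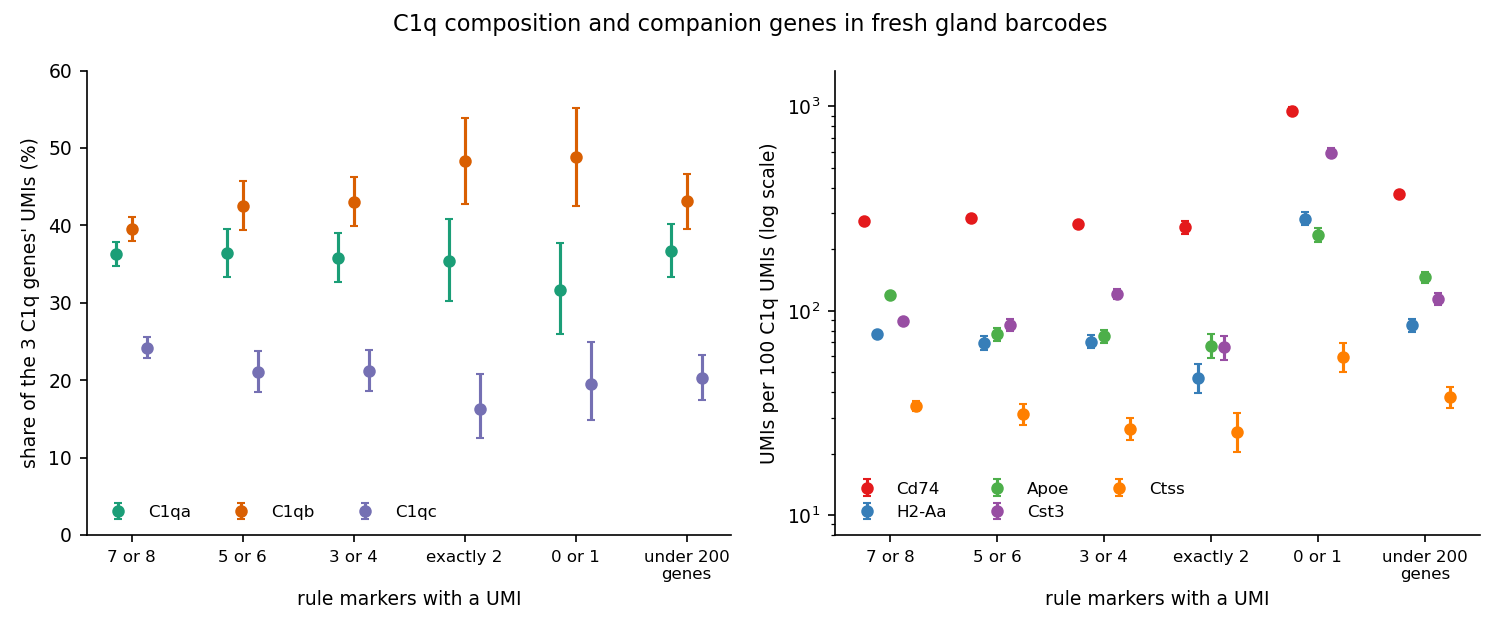
The left axis gives the percent of C1qa, C1qb and C1qc among the UMIs of the 3 genes, the right axis UMIs of 5 other genes per 100 C1q UMIs on a log scale, for fresh gland barcodes grouped by the number of rule markers or with fewer than 200 genes; points are sums over barcodes and bars 95% intervals of counting error. Cd74 sat between 256 and 284 per 100 C1q UMIs in the 4 groups with 2 or more markers, at 955 in barcodes with 0 or 1 marker and at 373 in those with fewer than 200 genes.

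MHC class II genes were among the most abundant transcripts of the members. Cd74, the invariant chain that guards the peptide groove, made up 34944 CPM in members (exact Poisson interval 34402 to 35493) against 2612 in the other barcodes, and had a UMI in 258 members (97.7%) and in 55.1% of the others. In endothelial-marker barcodes a UMI of Cd74 was found in 24 of 91 and of C1qb in 4 of 91, at a median depth of 2966 UMIs, against 2675 in members. Those barcodes held less acinar RNA than the members (medians 25.3% and 73.8%) and more counted UMIs (2027 and 620), so they are no measure of free RNA in the shallow members. On the log2 scale of CPM with a pseudocount of 1, which all ratios below use, the difference was 3.74 (3.69 to 3.80, conditional binomial). The classical chains followed, with H2-Aa at 9534 CPM and 3.77, H2-Eb1 at 9386 and 3.90, and H2-Ab1 at 6642 and 4.07. Their loading factors H2-DMa (3.59) and H2-DMb1 (3.92) and the costimulator Cd86 (3.53) were higher as well. Ciita, the class II transactivator, had 11 UMIs in members and 2 in others, too few for the comparison. All 8 of the 10 class II genes with at least 20 UMIs in both groups together were at least 4-fold higher, with a median of 3.76, where 343 of 8158 genes tested (4.2%) were higher by that fold, 513 (6.29%) lower, and the median of all genes was -0.42. With acinar and mitochondrial genes kept in the totals, 633 genes were higher and 91 lower by that fold, and the median was 0.60.

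In single barcodes class II transcripts took a median of 8.66% of the counted UMIs at 7 or 8 markers, with a minimum of 1.33%. At 5 or 6 markers the median was 5.71%, at 3 or 4 it was 2.77%, in the barcodes with exactly 2 markers 1.55%, and in all non-members 0.264%. Every one of the 41 deep members had Cd74, H2-Aa, H2-Ab1 and H2-Eb1, with a median of 259 Cd74 UMIs (range 48 to 555). The decline with fewer markers ran alongside the rise in acinar transcripts, and the part of the latter was not tested.

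Macrophage genes that the rule did not use moved with it. Of 15 such genes, 14 passed the count limit and all 14 were at least 4-fold higher in members, with a median of 4.14. These ratios come from summed UMIs, of which the 41 deep members held 231956 of 452606. With the mean of each barcode's own CPM, in which all barcodes weigh the same, the median was 2.90 here, 2.87 for MHC class II and 2.69 for Fc and complement receptors. Ctss, a lysosomal protease of antigen presentation, stood at 4141 CPM against 187 (log2 4.46, 4.27 to 4.67) and was found in 183 members. Cx3cr1, the fractalkine receptor, had 153 UMIs in 41 members and 4 UMIs in 4 of the 1288 other barcodes (6.34, 5.34 to 8.62). Mpeg1, which encodes a pore-forming protein of phagosomes, reached 5.59, Cybb, the catalytic subunit of the phagocyte oxidase, 5.28 and Ms4a7 4.59. Aif1, which encodes IBA1, stood at 862 against 39.9 CPM. Spi1, a transcription factor of the lineage, was also higher, by 3.15. The smallest differences were those of Ptprc (2.02), the CD45 antigen of all leukocytes, and Tyrobp (3.03), an adaptor shared with NK cells. Mertk, a receptor for dying cells, was the gene not tested, with 2 UMIs in members and 17 in others.

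In the 41 deep members, Ctss and Tyrobp were detected in all, Aif1 and Laptm5 in 39, Ms4a7 in 38, Mpeg1 in 37, Cybb in 36 and Cx3cr1 in 32. Cx3cr1 was far rarer in shallow members, at 1.73% of those with 3 or 4 markers against 57.2% for Ctss. When each barcode was thinned to 500 counted UMIs, which 187 members and 484 other barcodes reached, Ctss was found in 66.3% of members, 85.4% of the 41 and 8.68% of others. After the same thinning Cx3cr1 was found in 22.0% of the 41 and 6.42% of all members. The median share of members with a UMI over the 15 genes was 23.1% before and 12.8% after thinning.

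**Figure D3:**
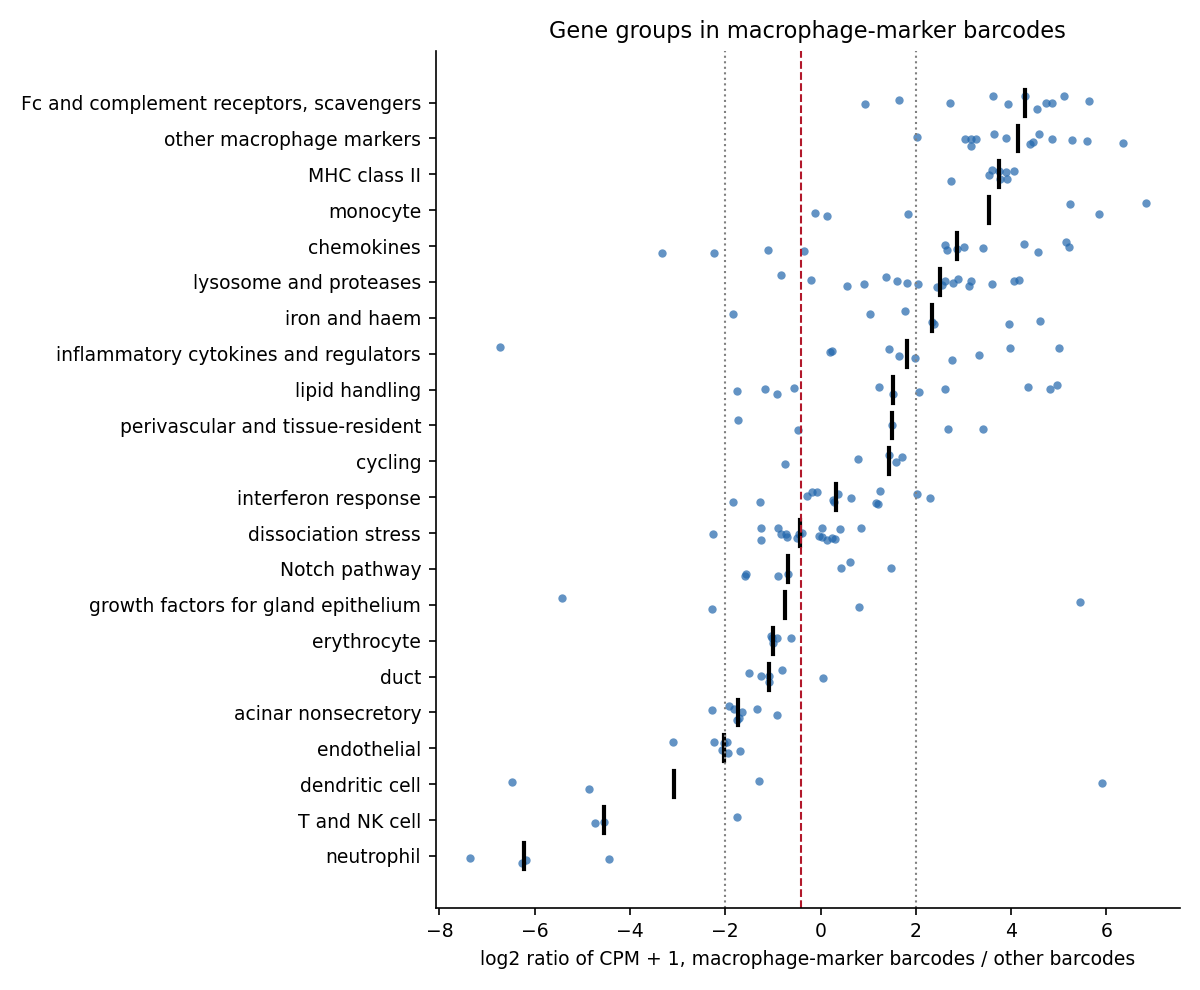
Each point is 1 gene of a named group, placed by the log2 ratio of its CPM plus 1 in the 264 members over the 1288 other barcodes; black bars are group medians, the red dashed line is the median of all 8158 genes (-0.42) and dotted lines mark 4-fold. Receptor, macrophage, MHC class II and lysosomal groups lay to the right, and endothelial, T and NK cell and neutrophil genes to the left, the last through 1 barcode of the others.

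Lysosomal genes were higher in members, but not all of them. Of 18 tested, 11 were at least 4-fold higher and none 4-fold lower, with a median of 2.50. Cst3, the secreted cathepsin inhibitor cystatin C, was the most abundant at 11966 CPM (3.11). Psap, the precursor of the saposins, stood at 2050.3 CPM (2.55). Lgmn, an asparagine-directed protease, differed most (4.16, 3.73 to 4.71), and Ctsc, which activates granule proteases, by 4.05. Ctsd (-0.20, -0.50 to 0.10) and Ctsl (-0.83, -1.26 to -0.44) were not higher. Once all genes entered the totals Ctsd turned to 0.88 and Ctsl to 0.24, and Ctsd turned to 0.06 with the 41 deep members alone. Lamp1, found in all cells with lysosomes, differed by 0.55.

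Receptors for antibody and complement were higher in members, at low counts. Of 16 genes on the list, 15 were in the gene annotation, 11 were tested and 9 were at least 4-fold higher, with a median of 4.30 (after thinning 1 of them, Cd36, could still be tested, at 0.15). The Fc receptors Fcgr3 (4.85), Fcgr4 (5.11, 3.85 to 8.89), Fcgr1 (4.54) and the inhibitory Fcgr2b (3.93) were all higher, as were the anaphylatoxin receptors C3ar1 (4.74) and C5ar1 (4.30) and Axl (3.62), a receptor for dying cells. Itgam, the CD11b chain of complement receptor 3, had 22 UMIs in 13 members and 0 in the others. Itgax (CD11c) differed by 1.65 and the scavenger receptor Cd36 by 0.94, both below 4-fold. The scavenger receptor genes Msr1, with 6 UMIs, and Marco, with 0, were too rare to compare.

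Among lipid genes, Apoe stood out by abundance. It reached 13407 CPM in members against 656 (4.35, 4.25 to 4.46), with a median of 121 UMIs in the 41 deep members (range 10 to 304). Lpl, which releases fatty acids from lipoproteins, differed by 4.96 and Trem2, a lipid-sensing receptor, by 4.82, with UMIs in 29 and 28 of the 41. Lgals3 (2.06) and Ch25h (2.60) were the other 2 past 4-fold of 11 tested, whereas Fabp4 (-1.17) and Fabp5 (-1.76) were lower, and Gpnmb had 0 UMIs. Fabp4 is also made by capillary endothelium, and stood at 8954 CPM in endothelial-marker barcodes. On the iron and haem list, 4 of 7 genes were at least 4-fold higher: Hpgd (4.61), which breaks down prostaglandins and is itself no iron or haem gene, Slc11a1 (3.96), which exports metal from phagosomes, Hmox1 (2.37), which splits haem, and Fth1 (2.33), the ferritin heavy chain, at 18939 CPM. The iron exporter Slc40a1 had 0 UMIs in members and 11 in others.

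Of the genes known from perivascular and long-lived resident macrophages, Mrc1, Cd163, Folr2, Lyve1, Timd4 and Vsig4 were at or near 0, while others of the list were found. Of the 264 members, 2 had a single UMI of Mrc1, both of them deep, and Cd163, Folr2, Lyve1, Timd4 and Vsig4 had 0 UMIs in all of them. For each, 3 counts allow a share of up to 1.14% of all members with a UMI, most of which were shallow. Among the 41 deep members alone, the share with a UMI of any of these genes was 4.88% (Clopper-Pearson 0.60 to 16.5). The list as a whole had a UMI in 99 members, 40 of the 41 deep ones among them, and summed to 667 CPM in members and 369 in others. Over its 12 genes 5 were tested, of which Pf4 (3.41) and Stab1 (2.66) passed 4-fold, while Selenop stood at 422 against 148 CPM and the Mertk ligand Gas6 differed by -1.73.

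**Figure D4:**
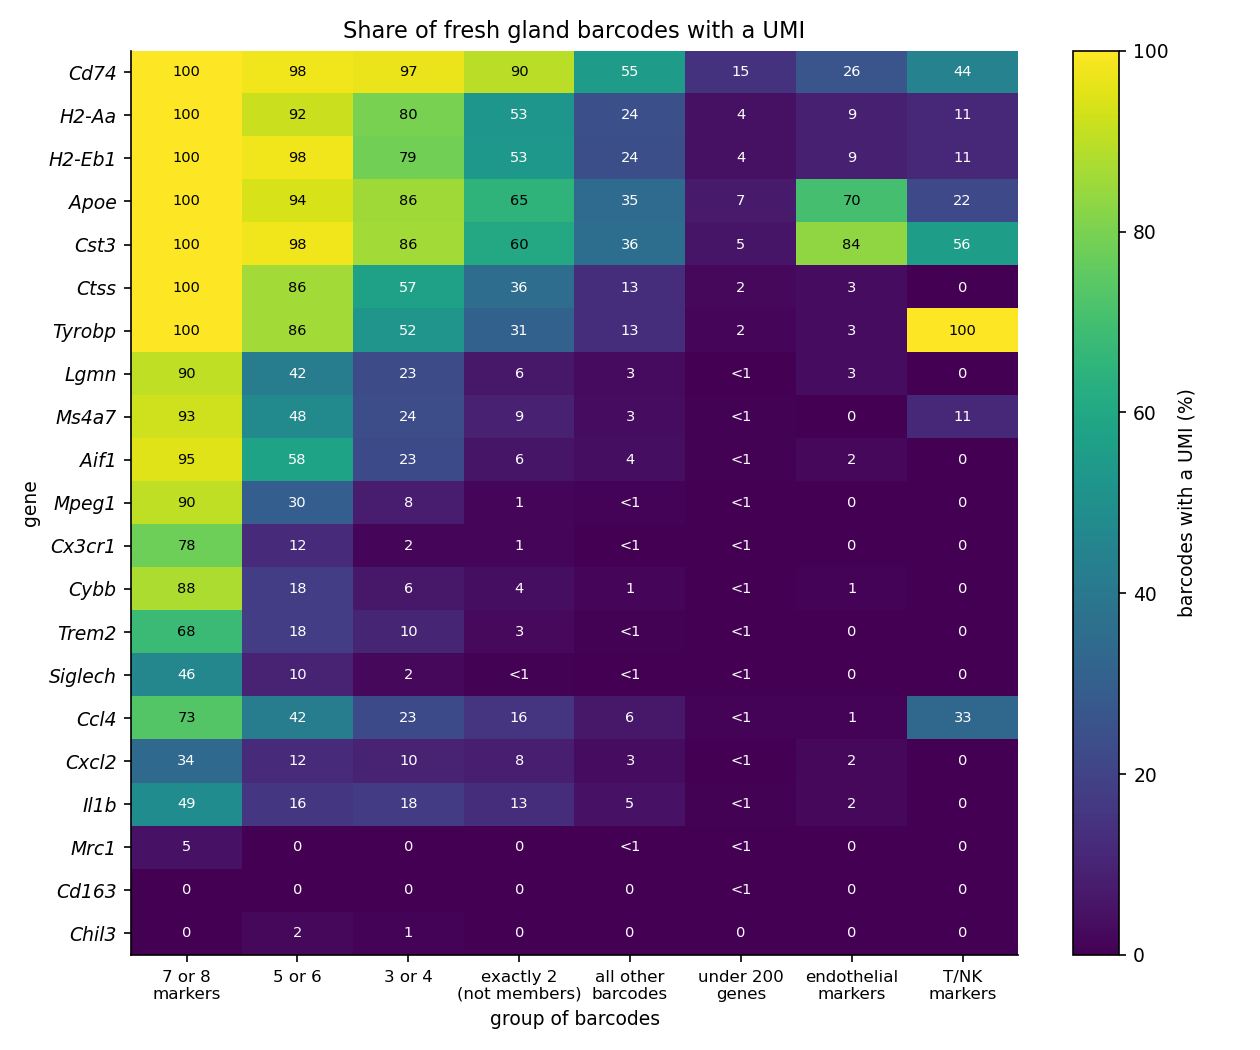
Cells give the percent of fresh gland barcodes with at least 1 UMI of each gene (rows) in 8 groups of barcodes (columns), from 0 (dark) to 100 (yellow). Cd74 was found in all 41 barcodes with 7 or 8 markers and in 55.1% of all non-members, whereas Cx3cr1, Trem2 and Siglech were found in a smaller share of barcodes with fewer markers.

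Chemokine transcripts were carried by part of the members. Of 13 tested, 9 were at least 4-fold higher and 2 at least 4-fold lower, with a median of 2.86. Ccl4, a macrophage inflammatory protein, was the most abundant at 2472 CPM (4.56, 4.31 to 4.85), with UMIs in 90 members and up to 123 in one. Its neighbour Ccl3 differed by 5.21, Ccl12, a ligand of Ccr2, by 5.15, the neutrophil attractant Cxcl2 by 4.28 and Cxcl16, a ligand of Cxcr6, by 2.86. Ccl5 (-2.23), also made by T and NK cells, and Ccl22 (-3.32, -9.15 to -1.25), made by mature dendritic cells, were lower. Cxcl10, an interferon-induced chemokine, had 119 UMIs in 13 members, 117 of them in 11 of the 41 deep members. Of 10 cytokines and regulators, Il1a (5.01), Tnf (3.97), Cd83 (3.32) and Il1b (2.76) were at least 4-fold higher, the NF-kB inhibitor Nfkbia differed by 0.19, and Il10 had 0 UMIs. Il12b had 0 UMIs in members and 132 in 4 other barcodes.

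Within the 41 deep members, 7 inflammatory genes were picked after their values were seen, and barcodes were split by how many of them had a UMI, so that the split itself sets the order of their levels. Of these genes (Ccl3, Ccl4, Cxcl2, Cxcl10, Il1a, Il1b and Tnf), 16 barcodes had a UMI of 4 or more, 12 of 2 or 3, and 13 of 0 or 1. The 16 barcodes held 89.2% of the 1912 UMIs of these genes, with a median of 74 UMIs each (range 24 to 329). The 13 barcodes had a median of 0 (range 0 to 3). The median depth was 7835 UMIs in the 16 and 6869 in the 13, and after thinning to 500 counted UMIs the medians were 6 and 0. Immediate-early and heat shock genes, which cell dissociation is known to induce, took a median of 1.44% of counted UMIs in the 16 barcodes and 0.398% in the 13, and their part in the difference was not tested. C1q took a median of 1.35% and 1.77% of counted UMIs, and MHC class II 8.18% and 8.66%.

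Against all other barcodes, dissociation genes had a median close to that of all genes. Of 18 such genes none was at least 4-fold higher, 1 (Fosb, -2.25) was lower, and the median was -0.43. Interferon response genes had a median of 0.33 over 14 genes, with Ifit2 (2.29) and Bst2 (2.02) past 4-fold. Of 14 genes of the Notch pathway, a subject of the study in the organoids, 7 were tested and none differed by 4-fold. Rbpj, the nuclear effector, was highest (1.48, 115 CPM), Notch1 stood at 22.1 and Notch2 at 42.0 CPM, the target Hes1 differed by -1.58, and the ligands Jag1, Jag2, Dll1 and Dll4 had 7, 1, 1 and 2 UMIs in members. Of 10 growth factors for epithelium 4 were tested, of which 1 was at least 4-fold higher and 2 at least 4-fold lower, with a median of -0.74. Tgfbi, a matrix protein induced by TGF-beta, had 66 UMIs in members against 3 (5.44, 4.32 to 8.24), Pdgfb differed by 0.80, and Hbegf, an EGF receptor ligand, had 0 UMIs against 53. Nrg1 and Wnt5a had 0 UMIs, and Igf1, Areg, Osm and Hgf between 3 and 6. The medians of these 4 lists moved in both directions with the processing. Without the barcodes that met the endothelial, T and NK or duct rule, where the median of all genes was -0.20, they were 0.58 for dissociation, 1.16 for interferon response over 11 genes, 0.39 for Notch over 3 and 2.51 for growth factors over 3. After thinning, the dissociation median was -0.80 and the Notch value, from 1 gene, -3.27, and with 4 markers the growth factor median was -2.19. With all genes in the totals they were 0.65, 1.38, 0.35 and 0.32, beside 0.60 for all genes.

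Markers of most other blood cell types were near 0 in the members. T and NK cell genes had 0 UMIs for 7 of 8, the exception being Nkg7 with 14 UMIs, and none of the 264 met a rule of 3 of 8 T and NK genes. S100a8 and S100a9, the defining neutrophil genes, had 1 UMI each. In the other barcodes, 823 of the 839 UMIs of the neutrophil list came from 1 barcode, without which the list stood at 12.8 CPM there and at 28.7 CPM in members. Of 10 monocyte genes, Chil3 (51 UMIs), Plac8 (46) and Ly6c2 (10) came from 4 members in all. The 3 members with Chil3 had 0 C1q UMIs and between 0 and 4 UMIs of MHC class II, so the rule also took in a few barcodes of a monocyte profile. Without these 3 the monocyte median went from 3.53 to -1.05. Ighm, the heavy chain of IgM, had 86 UMIs in 51 members, 30 of the 41 deep ones among them (3.56), while Cd79a, Ms4a1, Jchain, Mzb1 and Igkc had 0 and Cd79b 4. Siglech, known from plasmacytoid dendritic cells and microglia, had 48 UMIs in 28 members, 19 of them deep, and 1 in the others (5.90, 4.51 to 12.39), while the other tested dendritic cell genes Ccr7, Fscn1 and Cd7 were lower. Haemoglobin and other erythrocyte genes summed to 7481 CPM in members and 12764 in others, where 1 barcode reached 81.2% of its counted UMIs. The median log2 ratio of the tested genes on that list went from -1.01 to 1.78 at 500 genes or more, to 0.07 with all genes in the totals and to -3.04 without barcodes of the endothelial, T and NK or duct rule.

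Transcripts of neighbouring cells were found in both shallow and deep members. At least 3 of 8 duct genes were found in 22 members (8.33%, against 11.6% of the other barcodes). At least 3 of 8 endothelial genes were found in 7 members (2.65% against 7.07%). For 3 of 8 acinar genes outside the secretory list the count was 31 members (11.7% against 19.0%). These members included 6, 3 and 9 of the 41 deep ones and 13, 4 and 18 of the 173 with 3 or 4 markers. Duct genes summed to 1359 CPM in members, 3078 at 3 or 4 markers, 405 at 7 or 8, and 3042 in others. Epcam, the epithelial adhesion molecule, had UMIs in 54 members and in 6 of the 41. Without the barcodes that met the endothelial, T and NK or duct rule, 237 members and 1045 others remained, and 401 of 5410 genes tested (7.41%) were at least 4-fold higher. A doublet caller marked 0 of the 1552 barcodes at an expected rate of 1.24%. It thus marked none of the 27 members that met the endothelial, T and NK or duct rule. Its power at this depth was not tested, so the call does not show that doublets were absent.

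Genes on no list were named by size among those with at least 100 CPM. The highest differences after the listed genes were those of Cd180 (5.84, 4.44 to 12.33), a receptor related to toll-like receptors, Gatm (5.71), the first enzyme of creatine synthesis, Havcr2 (5.20, 4.07 to 8.01), which encodes TIM-3, Gpr65 (5.11), a proton-sensing receptor, and Ifi207 (5.02). They were followed by Pkib, Lpcat2, Dcstamp, Plau, Slamf9, Lilra5, Lacc1, Ms4a6b, Fyb and Apobec1, from 4.84 down to 4.70. Gatm had UMIs in 35 and Slamf9 in 35 of the 41 deep members. The lowest were the granzymes Gzmc (-5.46, -11.30 to -3.49) and Gzmb (-5.16, -11.00 to -3.19), with 1 UMI each in members, and Akap12, Btnl9, Cxcl12, Igfbp3, Esam and Podxl, from -3.91 to -2.84, most of which are known from endothelium.

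Calls were also counted for deep and shallow members apart. Of 7804 genes tested in the 41 deep members, 389 (4.98%) were at least 4-fold higher and 1214 (15.6%) lower. At 3 or 4 markers, 93 of 7488 (1.24%) were higher and 606 (8.09%) lower. Both pools were smaller than that of all members (231956 and 150727 against 452606 counted UMIs), and both had a larger share of lower calls. Over macrophage genes outside the rule, the median was 4.65 at 7 or 8 markers with 14 of 14 past 4-fold, and 2.93 at 3 or 4 with 9 of 12. Cx3cr1 stood at 582 CPM with 7 or 8 markers, 200.2 with 5 or 6 and 26.5 with 3 or 4. Lyz2 ran otherwise, at 1242, 2617 and 1652 CPM, and 1 member alone held 122 of its 720 UMIs. Cycling genes were found at 3 or more of 10 in 3 members, all of them deep, with 100 to 115 C1q UMIs each.

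Against endothelial-marker barcodes, all 14 macrophage genes tested outside the rule and all 7 MHC class II genes tested were at least 4-fold higher. The 257 members that did not also meet the endothelial or T and NK rule, duct- and acinar-rule members included, were set against 91 barcodes with at least 3 of 8 endothelial genes, whose own median was 1124 detected genes and the acinar share given above. Of 4404 genes, 357 (8.11%) were at least 4-fold higher in members and 587 (13.3%) lower. Cd74 differed by 7.19 (6.81 to 7.61), H2-Aa by 7.70, C1qb by 8.12 and Ctss by 8.15 (6.69 to 10.52), each with at most 53 UMIs in endothelial-marker barcodes, whereas Apoe, at 906 CPM in endothelial-marker barcodes, differed by 3.96 and Selenop by -0.26. Csf1r, Adgre1, Cd68, Cx3cr1, Mpeg1, Trem2 and Ccl3 had 0 UMIs there. Dissociation genes were lower in members, with a median of -1.64 over 18 genes and 8 at least 4-fold lower. Duct genes were higher (median 1.62), beside a median acinar share of 73.8% in all members, whose part was not tested.

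Only 9 barcodes met the T and NK rule, so this comparison rests on 42923 counted UMIs of those barcodes. Of 2978 genes, 530 (17.8%) were at least 4-fold higher in members and 143 (4.8%) lower. C1qa, C1qc, Csf1r, Adgre1, Cd68 and Lyz2 had 0 UMIs in the 9 barcodes, while Fcer1g stood at 3937 CPM and Tyrobp at 2563, and differed by -0.44 (-0.67 to -0.20) and 0.06 (-0.22 to 0.36). Both are adaptors that NK cells also use. Ptprc was lower in members (-2.09), and Cd74 (8.64) and H2-Eb1 (8.70, 6.28 to 14.06) were higher.

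No macrophage was found in the organoid libraries by the same rule. It was met by 0 of 7084 barcodes in control, 0 of 18958 in photon, 0 of 18415 in proton and 0 of 12665 in day 11 mSGOs, which allows shares of up to 0.0423, 0.0158, 0.0163 and 0.0237%. No organoid barcode had more than 1 of the 8 genes. C1qa, C1qb and C1qc had 0 UMIs in all 4 organoid libraries, over 16630995 to 37463582 counted UMIs each, against 6348 UMIs in the gland. Cd68 was the most abundant of the other rule genes, with 242, 803, 662 and 71 UMIs in control, photon, proton and day 11 mSGOs (14.6, 26.6, 23.0 and 1.90 CPM), against 121 CPM over all gland barcodes. In day 11 mSGOs Lyz2 had 39 UMIs, Csf1r 22, Fcer1g 3 and Adgre1 1, and in the day 7 libraries each of these had at most 2. Cd74 reached at most 0.614 CPM in the organoid libraries and at 11184 in the gland. The day 11 library was counted with another gene list and a later software version. The gland library shared 33, 72, 64 and 51 barcode sequences with the control, photon, proton and day 11 libraries, of which 0, 2, 2 and 1 were members, and none of the shared barcodes met the rule there.

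**Figure D5:**
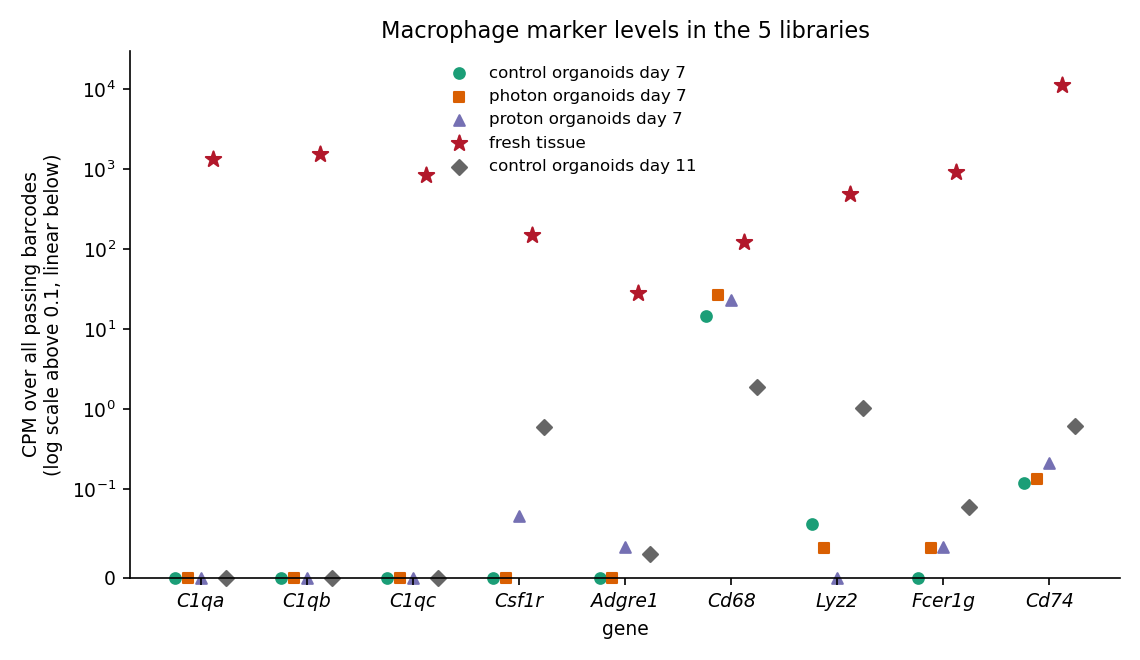
Points give the level of the 8 rule genes and Cd74 in CPM over all passing barcodes of each of the 5 libraries, on an axis that is logarithmic above 0.1 and linear below. The gland (stars) lay above all organoid libraries for each gene, and the C1q genes were at 0 in all 4 organoid libraries.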

How the data were processed

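Droplet 3′ single-cell RNA-seq (10x Genomics) was analysed. Per library, the authors deposited counts of UMIs per gene and barcode. The submitters' processing notes name Cell Ranger 5 and mm10, the file headers versions 3.0.1 and 7.0.0, and the study's methods GRCm39. Coordinates here are RefSeq GRCm38.p6 and may not be the counting build. The gland matrix held 13547 barcodes (19792416 UMIs, at least 500 each), of which 11597 had fewer than 200 genes and 398 of the rest over 10% mitochondrial UMIs. The study's methods exclude cells over 5% mitochondrial counts, run here as an alternative, and cells under 2500 features, not applied here since it would leave 10 of the 264 members and 34 of the 1552 passing barcodes. The study reports more gland tissue cells after its filtering than these 1552, and how its stated limit gave that number was not resolved. CPM totals left out 57 acinar secretory genes and 13 mitochondrial genes, which held 71.9% and 5.65% of gland UMIs. UMIs were summed per group of barcodes. Log2 ratios used a pseudocount of 1 CPM and genes with at least 20 UMIs in both groups together, and a gene past 4-fold was called. Intervals are 95% exact Poisson, Clopper-Pearson or conditional binomial intervals. They cover counting error within 1 library only. Those of levels and ratios take UMIs summed over barcodes as independent, so they leave out the spread between barcodes and are too narrow for it. No p-value was computed.

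Members and gene lists were chosen with earlier results of these data known. The naming rule took listed genes at 200 CPM or 4-fold higher. Its lists were the rule, macrophage, perivascular, MHC class II, lysosome, Fc and complement, lipid, iron, chemokine, cytokine, growth factor and Notch lists. Other listed genes that are named were chosen after their values were seen. A few listed genes are not reported here. The 15 highest and 8 lowest genes on no list were taken at 100 CPM. Alternatives changed the limits, marker rule, pseudocount, totals, depth and count minimum. Ratios were tested on simulated data. Python 3.11.15, scanpy 1.11.5 (Scrublet, expected rate 1.24%), numpy 2.4.6 and scipy 1.17.1 were used.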

Additional observations from a re-analysis of the deposited data

Results flagged for a closer look

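Macrophage genes also appeared below the gene limit, in barcodes that entered none of the log2 ratios. Of the 11597 gland barcodes with fewer than 200 genes, 41 met the marker rule (0.354%, above the 0.0259% that 3 counts allow). They had 112 to 199 detected genes and a median of 73.9% acinar secretory UMIs. All 3 C1q genes were found in 11 of them and Cd74 in 39. They held 130 of the 766 C1q UMIs of these shallow barcodes.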

How the results depend on the processing

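The share of macrophage-marker barcodes followed the rule. It was 17.0% as reported, 22.9% at 500 genes or more, 10.2% with 4 markers, 11.8% with 3 markers other than Lyz2 and Fcer1g, and, chosen after seeing the data, 2.64% with 7 or 8 markers. The 343 genes at least 4-fold higher became 633 with acinar and mitochondrial genes in the totals, 88 after thinning to 500 UMIs (2509 genes tested) and 543 at a minimum of 5 UMIs. The 513 lower genes became 91, 258 and 1247 under these settings, 974 with 4 markers, 849 without Lyz2 and Fcer1g, 83 at a pseudocount of 10 and 1193 with 7 or 8 markers. With all genes in the totals the median of all genes moved from -0.42 to 0.60. Genes higher than in endothelial-marker barcodes numbered 357 as reported, 131 when thinned and 873 at 5 UMIs, and those higher than in T and NK-marker barcodes 530, 201 and 2270. Of 19 lists with at least 5 tested genes, 8 had a median at least 4-fold higher in members, the rule markers and the monocyte list among them, and 5 when thinned. The median share of members with a UMI of a macrophage gene outside the rule went from 23.1% to 33.5% with 4 markers and 12.8% when thinned. The monocyte median turned from 3.53 to -0.75 when thinned, -3.71 with 7 or 8 markers and -1.05 without 3 members of monocyte genes. The T and NK cell median turned from -4.54, a value that rests on genes at 0 UMIs in members and is no bound, to 0.0816 when thinned, where the monocyte and T and NK cell lists had 1 tested gene each. Of the 109 genes taken by the naming rule or by rank, 106 kept their direction in each alternative that gave them a value. Ctsd, Cd9 and Nfkbia did not, and other listed genes, such as Ctsl, were not counted. The 109 include the 8 rule genes and genes picked by this same ratio. Leaving out called doublets (0 barcodes), other pseudocounts and another count minimum cannot turn a direction, so these counts are a description. Of the 89 genes past 4-fold, 73 stayed past it. Those that did not were Lyz2, Cd14, Cd53, Ptprc, Stab1, H2-Oa, Ctsa, Itgb2, Lgals3, Ch25h, Fth1, Hmox1, Ccl2, Ccl6, Ccl9 and Il1b. All 15 alternatives gave a value for 66 of the 109, and thinning for 71. Thinning and count minimums changed how many genes could be tested, and the cause of the other shifts was not tested. No paired analysis was possible because each group has 1 library, and no replicate could be left out. Depth limits what the shallow members can show.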
